A study of Rattus norvegicus with 4 samples.

Results

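The lipogenesis-high adipocyte nuclei were the adipocyte nuclei in which the largest share of the transcripts came from 4 genes of de novo fatty acid synthesis, Fasn, Acaca, Acly and Elovl6. They numbered 8155 of 81575 adipocyte nuclei, in a series of 125904 barcodes. A barcode counted as an adipocyte nucleus when it held at least 1000 unique molecular identifiers (UMIs, each standing for 1 captured transcript), at least 5 UMIs summed over Adipoq, Plin1, Lipe, Pparg, Cidec and Acsl1, and no UMI of Cyyr1, Ptprb, Pdgfra, Ptprc, Myh11, Cdh19 or Mki67, genes of endothelial, stromal, immune, muscle, glial and dividing cells. Within each library, the 10% of adipocyte nuclei with the highest share of UMIs from the 4 genes were taken; they are called members here, and the other 73420 the remaining adipocytes. The cut is a range on a continuous score, and whether the members form a cell type of their own was not tested.

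De novo lipogenesis builds fatty acids from glucose carbon. ATP citrate lyase (Acly) turns exported citrate into acetyl-CoA, acetyl-CoA carboxylase 1 (Acaca) makes malonyl-CoA from it, fatty acid synthase (Fasn) assembles palmitate with NADPH, and Elovl6 extends palmitate to stearate. In fat, the product is esterified to glycerol and stored, and in brown fat it can also be burned to make heat. Insulin acts on the pathway through the transcription factor SREBP-1c, encoded by Srebf1, and glucose through ChREBP.

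The nuclei came from snap-frozen fat of untreated male SS/HsdMcwiCrl rats, the Dahl salt-sensitive strain, at 16 weeks of age; the series' design text gives 2 rats for each tissue. One tissue was thoracic aorta perivascular adipose tissue (taPVAT), which wraps the vessel, and the other was subscapular brown adipose tissue (BAT), with 2 libraries of each. About 50 mg of tissue was used, and the labels do not say whether a taPVAT and a BAT library came from 1 rat. The files hold 44637, 14765, 36950 and 29552 barcodes for taPVAT replicate 1, taPVAT replicate 2, BAT replicate 1 and BAT replicate 2, against a targeted recovery of 10000, with 63654436 to 158140959 UMIs a library. All values below follow that order of libraries. Adipocyte nuclei made up 61.5% to 67.0% of the barcodes and gave 2875, 908, 2475 and 1897 members. Barcodes with at least 1000 UMIs numbered 41540, 12498, 34112 and 26464. Of these, 40656, 11492, 33437 and 25721 also held at least 5 UMIs of the adipocyte genes, so this step set few apart. The exclusion genes then removed 29.3%, 20.9%, 26.0% and 26.2% of the barcodes it kept. Any pair of libraries shared 126 to 424 barcode sequences, and 0 to 3 of these were members in both.

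Promoter sequences are shown for the rule gene Acly and for the genes of fatty acid synthesis and desaturation that were higher in the members by the test described below and had a single entry in the RefSeq promoter table (build GRCr8, 250 bases before to 50 after the annotated start, printed 5′ to 3′ on the gene's strand). Capitals mark matches, on either strand, to CCAAT, the core of the NF-Y box, which was the only motif found in these sequences of the 3 searched. The coordinates are chr10:85963582-85963881 (minus strand) for Acly, chr1:253231682-253231981 (minus) for Scd, chr3:164464453-164464752 (plus) for Acss2, chr1:161138915-161139214 (minus) for Thrsp and chr3:100568849-100569148 (minus) for Hsd17b12.
Acly: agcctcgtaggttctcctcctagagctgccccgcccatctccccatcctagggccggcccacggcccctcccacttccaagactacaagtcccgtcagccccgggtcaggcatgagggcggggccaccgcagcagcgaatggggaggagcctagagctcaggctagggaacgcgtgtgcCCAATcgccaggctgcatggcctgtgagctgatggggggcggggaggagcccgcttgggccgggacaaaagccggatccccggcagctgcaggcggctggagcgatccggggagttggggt
Scd: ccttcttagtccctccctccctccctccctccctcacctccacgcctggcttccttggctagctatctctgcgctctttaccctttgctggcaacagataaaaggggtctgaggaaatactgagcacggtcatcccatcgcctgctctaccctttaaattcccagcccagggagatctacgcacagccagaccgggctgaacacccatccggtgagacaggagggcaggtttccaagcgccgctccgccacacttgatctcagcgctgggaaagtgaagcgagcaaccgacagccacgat
Acss2: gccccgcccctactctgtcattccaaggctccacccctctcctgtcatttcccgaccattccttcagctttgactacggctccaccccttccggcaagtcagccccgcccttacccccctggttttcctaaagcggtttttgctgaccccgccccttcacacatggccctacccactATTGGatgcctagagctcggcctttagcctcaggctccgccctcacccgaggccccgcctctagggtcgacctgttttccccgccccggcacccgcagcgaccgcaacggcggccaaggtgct
Thrsp: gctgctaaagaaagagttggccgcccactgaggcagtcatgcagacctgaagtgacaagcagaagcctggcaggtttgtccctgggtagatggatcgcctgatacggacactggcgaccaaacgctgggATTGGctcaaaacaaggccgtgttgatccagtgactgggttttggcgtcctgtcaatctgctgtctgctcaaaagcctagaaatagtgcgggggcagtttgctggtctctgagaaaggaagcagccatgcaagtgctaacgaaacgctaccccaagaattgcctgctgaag
Hsd17b12: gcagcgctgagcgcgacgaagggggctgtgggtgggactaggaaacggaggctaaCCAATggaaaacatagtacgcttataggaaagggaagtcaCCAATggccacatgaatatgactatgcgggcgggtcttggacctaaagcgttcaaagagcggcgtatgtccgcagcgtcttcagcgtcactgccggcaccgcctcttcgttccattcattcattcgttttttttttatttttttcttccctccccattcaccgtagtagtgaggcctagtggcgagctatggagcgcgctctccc

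For 22 of the 23 genes of that list the table held 24 promoters, 3 of them of Tecr. Mcat had none, and neither did the rule genes Fasn, Acaca and Elovl6. CCAAT was present in 13 of the 24 (54.2%), against 37.5% of all 33469 promoters of the table. The E-box CACGTG was present in 4 of the 24 (16.7%) and in 6.42% of all promoters. The sterol element TCACNCCAC was found in none of the 24 and in 1.12% of all. These are matches of letters in a window of 300 bases, not measured binding.

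The members held 11263, 10731, 7587 and 6224 UMIs of the 4 genes in CPM (the summed UMIs of the nuclei scaled to a total of 1000000), and the remaining adipocytes 5417, 4243, 3259 and 1676. This difference is what the rule selected and is given without a test. The cut fell at different levels, since it was set within each library: the last member stood at 9648, 8594, 6238 and 3605 CPM, and the first nucleus outside at 9648, 8593, 6236 and 3604. A member of BAT replicate 2 could therefore hold as few as 4 UMIs of the 4 genes (median 13), whereas the fewest in the other libraries were 10, 9 and 7 (medians 34, 56 and 29). Barcodes of another cell type also held such UMIs. In 166, 81, 112 and 83 endothelial barcodes (at least 3 UMIs over Cyyr1 and Ptprb and fewer than 5 over the adipocyte genes), the 4 genes still gave 2929, 1055, 2237 and 782 CPM.

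The choice rested mainly on Acaca, which supplied 46.1% to 62.2% of the members' UMIs of the 4 genes, in counts not corrected for transcript length. Acly supplied 17.1% to 40.0%, Fasn 9.44% to 20.7% and Elovl6 0.123% to 0.360%. Acaca stood at 6981, 6015, 4716 and 2870 CPM in the members and at 3341, 2605, 1838 and 882 CPM in the remaining adipocytes. Fasn stood at 2336, 1013, 1567 and 853 against 1251, 483, 795 and 296 CPM, and Acly at 1928, 3665, 1296 and 2487 against 816, 1136, 621 and 489 CPM. The make-up of the score thus differed between libraries: Acly was at its highest in the members of both libraries numbered 2, and Fasn in those of both numbered 1. UMIs of Fasn, Acaca and Acly were found together in 97.0%, 97.6%, 95.4% and 78.2% of the members, and in 79.5%, 74.6%, 75.8% and 35.8% of the remaining adipocytes.

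Every adipocyte gene fixed for a check of the label was used by the gate or the rule, so the levels that follow describe the members and do not test the label. Adipoq, the adipocyte hormone adiponectin, stood at 295, 236, 367 and 295 CPM in the members and at 315, 231, 373 and 268 in the remaining adipocytes. The droplet coat gene Plin1 stood at 1880, 1394, 2525 and 1527 against 2057, 1381, 2681 and 1440 CPM. Pparg, the master regulator of fat cells, stood at 3308, 5512, 3150 and 6281 against 3392, 5554, 3112 and 6558 CPM. Each gene was higher in the members of some libraries and lower in those of others.

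The 4 genes went together when each was left out of the choice. Nuclei chosen by the other 3 genes held the left-out gene at a log2 ratio over the rest of 0.67 ± 0.29 for Fasn, 0.68 ± 0.29 for Acaca, 1.12 ± 0.57 for Acly and 0.67 ± 0.33 for Elovl6 (mean ± SD, n = 4 libraries). All 16 ratios were above 0. The ratios of Acly were 0.75, 1.13, 0.67 and 1.91, so that BAT replicate 2 stood far above the others. For Elovl6, with few UMIs, the same library was the lowest, at 0.19 against 0.76 to 0.94.

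**Figure D1:**
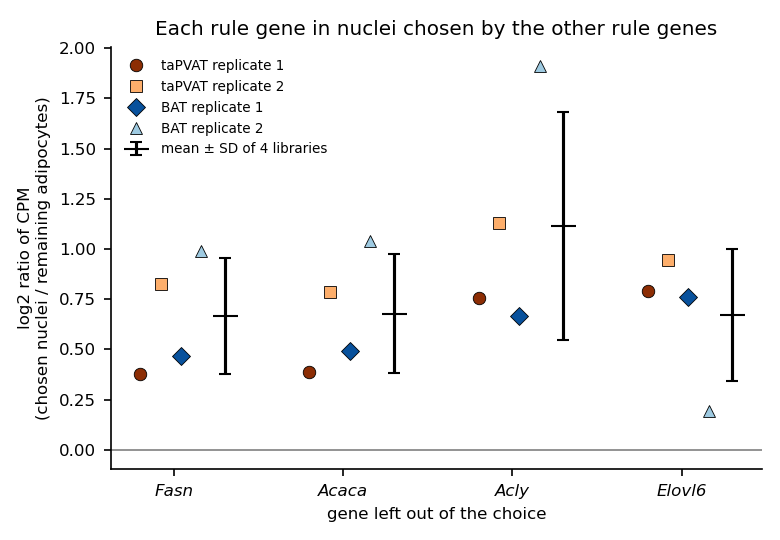
Each rule gene in adipocyte nuclei chosen by the other 3 rule genes, as the log2 ratio of its CPM in the chosen 10% over the remaining adipocytes (y axis), with 1 symbol per library and the mean ± SD over 4 libraries in black. All ratios lie above 0, from 0.19 for Elovl6 in BAT replicate 2 to 1.91 for Acly in the same library.

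Depth and mitochondrial RNA moved in different directions in different libraries. The members held a median of 3074, 5362, 3729 and 2688 UMIs and the remaining adipocytes 3176, 4779, 3997 and 2823 (exact two-sided paired permutation test over the 4 libraries, p = 1; the smallest p it allows is 0.13), fewer in 3 libraries and more in taPVAT replicate 2. Mitochondrial UMIs made up a median of 7.26%, 5.62%, 7.09% and 10.2% in the members and 7.04%, 6.41%, 6.70% and 9.93% in the others (p = 1, same exact test). Doublet scoring with Scrublet marked 5.95%, 2.53%, 11.7% and 10.6% of the members and 11.4%, 7.1%, 19.7% and 15.9% of the remaining adipocytes; in BAT replicate 1 the caller had found no doublet, and its share comes from a number of top scores set from the other libraries.

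Beyond the 4 rule genes, the members held more RNA of some genes that supply or use fatty acid synthesis. The hexokinase gene Hk2 and the acyl-CoA synthetase gene Acsl5 were higher, and passed with any 1 library left out. The glycerol acyltransferase gene Gpam and the desaturase gene Scd were also higher; without taPVAT replicate 2 they stood at 1.18 and 1.57 but did not pass (edgeR, adjusted p = 0.202 and 0.214). The uncoupling gene Ucp1 was lower; it stood at -0.33 without taPVAT replicate 1 and at -0.23 without taPVAT replicate 2, and passed in neither (edgeR, adjusted p = 0.0932 and 0.0905). UMIs were summed over the members and over the remaining adipocytes of each library, and the sums were compared with edgeR's quasi-likelihood test with the library as a term, with Benjamini-Hochberg adjustment over 13565 genes. At an adjusted p under 0.05, 158 genes (1.16%) were higher in the members and 322 (2.37%) lower; DESeq2 called 213 (1.57%) and 298 (2.2%). The members of all 4 libraries were above the remaining adipocytes for 1261 genes (9.3%) and below them for 1988 (14.7%). The counts depended on the library: without taPVAT replicate 2 they were 44 higher and 114 lower, without taPVAT replicate 1, 122 and 172, and without BAT replicate 1, 126 and 201. Without BAT replicate 2, both counts were above those with all 4 libraries. The gene lists below were read against these shares and against the median log2 fold change of all genes tested, -0.01.

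Among 21 other tested genes of fatty acid synthesis and desaturation, 5 were higher in the members (Scd, Tecr, Acss2, Thrsp and Hsd17b12), none was lower, and the list's median log2 fold change was 0.41. The level was higher in the members of all 4 libraries for 9 of the 21. Scd, the stearoyl-CoA desaturase that puts the double bond into stearate, stood at 453, 116, 82.7 and 287 CPM in the members and at 325, 25, 38.8 and 29.9 CPM in the remaining adipocytes. The difference ran from a log2 ratio of 0.48 in taPVAT replicate 1 to 3.26 in BAT replicate 2, with a fitted log2 fold change of 1.72 ± 0.37 (SE; edgeR, adjusted p = 0.0347). Endothelial barcodes held 587, 27.6, 86.2 and 59.6 CPM of Scd. In taPVAT replicate 1 and BAT replicate 1 the members' Scd was thus no higher than in these barcodes, and with each nucleus thinned to 1000 UMIs a UMI of Scd was seen in 44.6% and 10.7% of them against 37.7% and 7.35% of the members (57.2% and 13.4% against 72.6% and 23.0% unthinned, at medians of 1350.5 and 1547 against 3074 and 3729 UMIs).

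Acss2, which makes acetyl-CoA from acetate, stood at 383, 858, 441 and 1084 CPM against 314, 543, 368 and 658 CPM. This was a log2 fold change of 0.49 ± 0.08 (edgeR, adjusted p = 0.0085), with each library higher in its members. Thrsp, known as Spot 14 and tied to lipogenic tissues, stood at 1379, 1234, 1320 and 1314 against 1174, 927, 1097 and 799 CPM (log2 0.41 ± 0.07, edgeR adjusted p = 0.0134). Endothelial barcodes held 1354, 558, 1498 and 536 CPM of Thrsp, at or above the members in BAT replicate 1. Tecr (0.72 ± 0.16, edgeR adjusted p = 0.0456, DESeq2 adjusted p = 0.117) and Hsd17b12 (0.29 ± 0.05, edgeR adjusted p = 0.0171) work in the elongation of long fatty acids. Me1, the malic enzyme that supplies NADPH, stood at 738, 1478, 466 and 874 against 503, 522, 352 and 140 CPM but did not pass (1.26 ± 0.30, edgeR adjusted p = 0.0544). The citrate carrier Slc25a1 did not pass either (0.71 ± 0.17, edgeR adjusted p = 0.0567). Without taPVAT replicate 2, 0 of the 21 genes passed, whereas 8 passed without any 1 of the other libraries. With taPVAT replicate 2 left out, Scd stood at 1.57, Tecr at 0.70, Acss2 at 0.43, Thrsp at 0.41 and Hsd17b12 at 0.26.

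Genes that carry glucose to acetyl-CoA and NADPH gave the largest number of calls: of 32 tested, 10 were higher in the members and 1 was lower. Hk2, the insulin-sensitive hexokinase, stood at 2161, 1491, 1468 and 1093 CPM in the members and at 1504, 1089, 995 and 748 CPM in the others. Each library was higher in its members by a similar ratio, and the fitted log2 fold change was 0.52 ± 0.04 (edgeR, adjusted p = 0.000354). Endothelial barcodes held 286, 110, 124 and 89.4 CPM of Hk2, below both states. The glucose transporter gene Slc2a4 was higher by a log2 fold change of 0.24, the mitochondrial pyruvate carrier gene Mpc1 by 0.44, and 3 subunits of pyruvate dehydrogenase by 0.24 (Pdha1), 0.29 (Pdhb) and 0.24 (Dlat). The pentose phosphate genes Tkt (0.21, called in 10 of 19 alternative settings) and Taldo1 (0.40) and the dicarboxylate carrier gene Slc25a10 (1.21) were also higher. Of the kinases that switch pyruvate dehydrogenase off, Pdk1 was higher (0.51 ± 0.07, edgeR adjusted p = 0.00557), and Pdk4, at 569, 195, 919 and 169 against 711, 273, 999 and 205 CPM, was lower (-0.30 ± 0.06, edgeR adjusted p = 0.0201). Hk2, Pdhb and Taldo1 were the 3 of the list that also passed without taPVAT replicate 2. Slc25a10 rested on few UMIs and did not pass with DESeq2 (adjusted p = 0.0593).

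Of 21 tested genes of triglyceride synthesis and lipid droplets, 4 were higher and 1 was lower, and the median was 0.05. Acsl5 activates fatty acids to their CoA form. It stood at 1817, 1940, 930 and 424 CPM in the members and at 1163, 1049, 485 and 251 CPM in the remaining adipocytes, higher in every library (0.81 ± 0.05, edgeR adjusted p = 0.000272). Gpam, which starts glycerolipid synthesis, stood at 1644, 1702, 872 and 929 against 1119, 742, 584 and 168 CPM, with the widest gap in BAT replicate 2 (1.18 ± 0.26, edgeR adjusted p = 0.0371). The acyltransferases Agpat2 (0.47) and Agpat3 (0.19) of the following step were also higher, though Agpat3 passed in only 6 of 19 alternative settings. Pck1, the enzyme of glyceroneogenesis, was lower in the members (-0.23 ± 0.05, edgeR adjusted p = 0.0301), and Dgat2, which closes the pathway, did not pass (0.19 ± 0.05, edgeR adjusted p = 0.0656). Acsl5 alone passed without taPVAT replicate 2.

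Of 27 tested regulators of lipogenesis and insulin signalling genes, 2 were higher (Pnpla3 and Pik3r1) and 1 was lower (Irs2). Pnpla3, a lipid droplet protein, stood at 1004, 564, 404 and 440 CPM against 631, 215, 303 and 93.0 CPM (1.17 ± 0.24, edgeR adjusted p = 0.027). Pik3r1, the regulatory subunit of the kinase downstream of insulin, was higher by 0.21 ± 0.04 (edgeR, adjusted p = 0.0228), and the insulin receptor substrate gene Irs2, at 117, 71.8, 217 and 112 against 170, 96.2, 244 and 134 CPM, was lower by -0.34 ± 0.06 (edgeR, adjusted p = 0.016). Srebf1 stood at 85.9, 214, 142 and 345 against 92.6, 178, 134 and 208 CPM, which did not pass (0.25 ± 0.11, edgeR adjusted p = 0.313). Its direction differed between libraries, with taPVAT replicate 1 lower in the members. None of the 3 calls of this list held without taPVAT replicate 2, where Pnpla3 stood at 1.09, Pik3r1 at 0.22 and Irs2 at -0.31.

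Cholesterol synthesis, which SREBP factors also control, gave 5 higher and 0 lower of 22 tested genes (median 0.28), and 14 of the 22 were higher in the members of all 4 libraries. The 5 were Fdps (0.26), Fdft1 (0.49), Lss (0.72), Cyp51 (0.81) and Sc5d (0.48). They act in the steps that lead to squalene, close it or change the sterols after it. Fdft1, squalene synthase, stood at 41.9, 24.2, 33.5 and 15.8 CPM against 30.1, 16.0, 26.5 and 10.3 CPM (edgeR, adjusted p = 0.00501) and was the 1 gene of the list that passed without taPVAT replicate 2. Insig1, the sterol sensor, stood just outside (0.81 ± 0.19, edgeR adjusted p = 0.0525). Of the genes of fatty acid uptake from blood, 2 are given here. The transporter gene Slc27a1 was higher (0.65 ± 0.10, edgeR adjusted p = 0.00613), at 360, 204, 360 and 94.1 against 279, 129, 251 and 43.0 CPM, and the caveolin gene Cav1 was lower (-0.21 ± 0.05, edgeR adjusted p = 0.0364), the latter in only 7 of 19 alternative settings. Neither passed without taPVAT replicate 2.

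**Figure D2:**
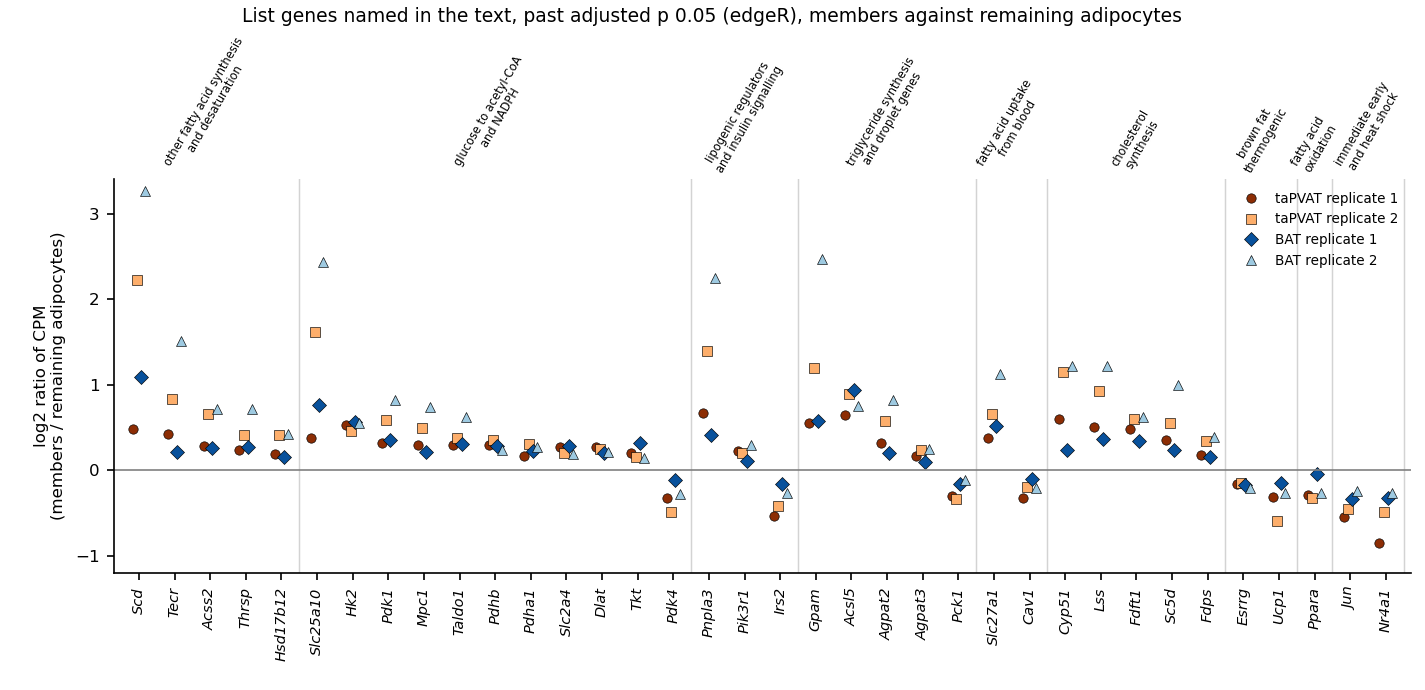
Genes named from 9 metabolic and response lists that passed an adjusted p of 0.05 (edgeR), with the log2 ratio of CPM in the members over the remaining adipocytes of the same library on the y axis and 1 symbol per library. Hk2 and Acsl5 sit close together in the 4 libraries, whereas Scd, Slc25a10, Pnpla3 and Gpam spread widely, with BAT replicate 2 highest.

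Outside synthesis, most lists had few calls. None of 18 lipolysis genes, 12 adipokine genes or 26 nuclear genes of oxidative phosphorylation passed (edgeR), with medians of -0.02, 0.09 and 0.03. Over all 13565 genes 1.16% were called higher and 2.37% lower, so 0 calls in lists of this size does not set them apart. Of 24 fatty acid oxidation genes, 1 was lower, the receptor gene Ppara (-0.23 ± 0.05, edgeR adjusted p = 0.0434; called in 9 of 19 alternative settings). Of 19 brown fat thermogenic genes, 3 were lower: Ucp1, Esrrg (-0.17, called in 10 of 19 alternative settings) and Pdk4. Ucp1, the uncoupling protein of brown fat, stood at 765, 308, 1384 and 550 CPM in the members and at 952, 465, 1536 and 662 CPM in the remaining adipocytes, lower in every library (-0.33 ± 0.06, edgeR adjusted p = 0.0233). Endothelial barcodes held 485, 215, 512 and 268 CPM of Ucp1. No thermogenic gene passed without taPVAT replicate 1 or without taPVAT replicate 2. Of 19 immediate early and heat shock genes, Jun (-0.39) and Nr4a1 (-0.47) were lower; without taPVAT replicate 2 they stood at -0.37 and -0.46 and did not pass (edgeR, adjusted p = 0.0749 and 0.107). Of 18 clock genes, Dbp was higher, at 40.5, 26.2, 67.8 and 40.7 against 30.1, 21.8, 48.3 and 24.6 CPM (0.49 ± 0.07, edgeR adjusted p = 0.00551). Of 8 depot and subtype genes drawn from earlier results of these data, the ion channel gene Asic2 was higher (0.76 ± 0.14, edgeR adjusted p = 0.0181; DESeq2 adjusted p = 0.534) and Impdh1 lower (-0.45 ± 0.10, edgeR adjusted p = 0.0443). Asic2 was higher in the members of 3 of 4 libraries. Its log2 fold change was 0.92 in taPVAT and 0.04 in BAT, where the members held 17 and 24 UMIs of it. The difference between the tissues did not pass. Neither Asic2 nor Impdh1 passed without taPVAT replicate 2.

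By the rule for named genes, 12 genes with the largest rises were taken over all genes with at least 10 CPM, among them Scd, Slc25a10, Gpam and Pnpla3, described above. The glucagon receptor gene Gcgr stood at 26.6, 14.0, 58.9 and 42.3 CPM in the members and at 17.3, 4.42, 32.3 and 7.0 CPM in the others (1.33 ± 0.27, edgeR adjusted p = 0.0247). Tmem110, known also as Stimate and active in calcium entry, stood at 725, 503, 453 and 259 against 415, 273, 234 and 79.4 CPM. It was higher in each library and in both tissues (1.08 ± 0.12, edgeR adjusted p = 0.00176). Zfp189, a zinc finger gene, followed at 46.7, 55.0, 27.7 and 24.2 against 30.6, 25.7, 18.5 and 11.6 CPM (0.82 ± 0.09, edgeR adjusted p = 0.00201). Nav3 (1.13), Ttc25 (0.97), Mustn1 (0.97) and Tmeff2 (0.94; DESeq2 adjusted p = 0.0885) were also among them. Nav3 stood at 102 and 164 CPM in the endothelial barcodes of BAT, above its 32.9 and 73.1 CPM in the members there. Of those named here, Tmem110, Mustn1 and Zfp189 passed without taPVAT replicate 2. In the RefSeq order of genes, Mustn1 lies near Tmem110 with 2 genes between, Ttc25 near the rule gene Acly and Slc25a10 near Gcgr with 1 gene between each pair. Whether reads of 1 gene were counted for its neighbour was not tested, since the strand and intron settings were not given in the sources used here.

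Some of these genes changed along the whole score, and others mainly at its top. The adipocytes of each library were ranked by the score and split into 10 equal groups, with the members as group 10. From group 1 to group 10, Acsl5 went from 477 to 1817 CPM in taPVAT replicate 1, from 286 to 1940 in taPVAT replicate 2, from 219 to 930 in BAT replicate 1 and from 179 to 424 in BAT replicate 2. Hk2 went from 859 to 2161, from 719 to 1491, from 647 to 1468 and from 631 to 1093 CPM. Scd, in contrast, stood at similar levels in groups 1 and 9 of both libraries numbered 2, and higher in group 10. In BAT replicate 2 it stood at 33.3 CPM in group 1, at 37.1 in group 9 and at 287 in group 10. In taPVAT replicate 2 these levels were 28.6, 28.2 and 116 CPM. Me1 and Gpam showed this jump in BAT replicate 2 (Me1 121, 176 and 874 CPM, Gpam 128, 231 and 929 CPM in groups 1, 9 and 10), and a steadier course in the other 3 libraries. Ucp1 went down in both taPVAT libraries, from 1030 to 765 and from 667 to 308 CPM, and changed less in BAT, from 1478 to 1384 and from 664 to 550. These values describe the score and have no test, since the groups share each library.

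**Figure D3:**
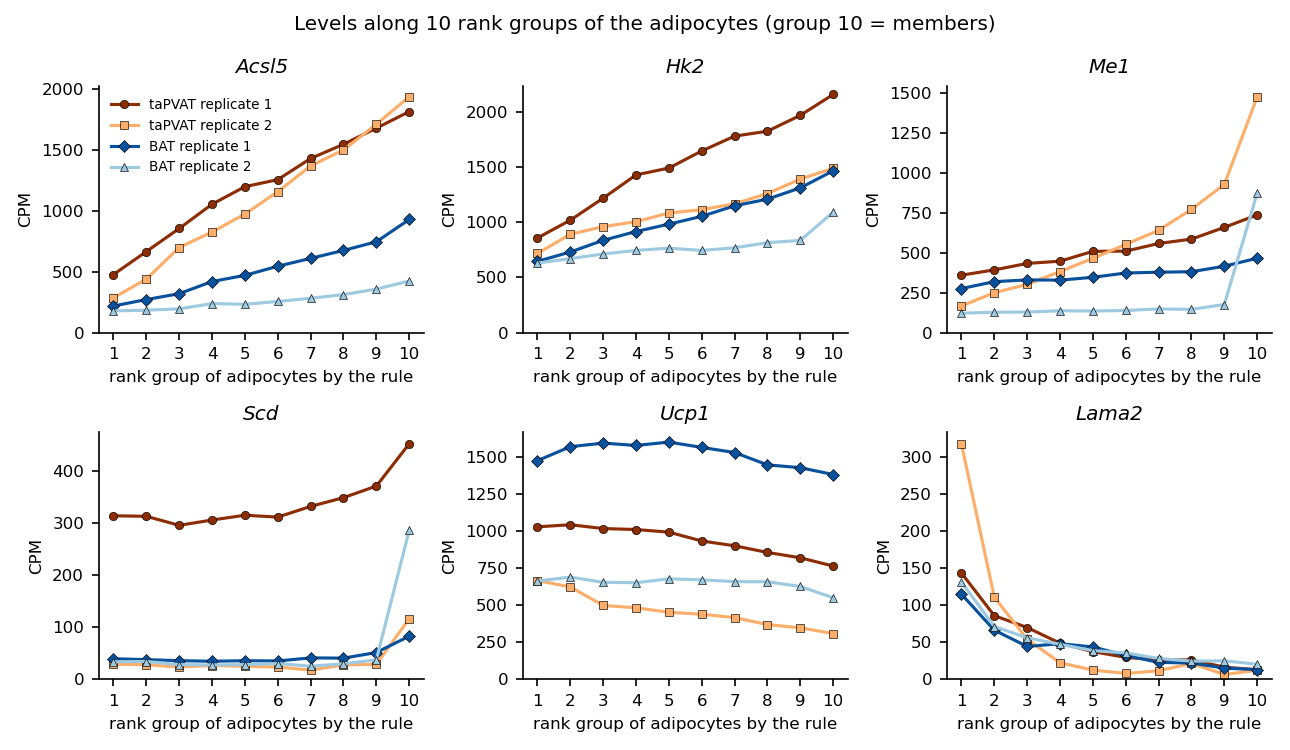
CPM (y axis) of 6 genes along 10 equal groups of the adipocytes of each library ranked by the share of the 4 rule genes (x axis, group 10 is the members), with 1 line per library. Acsl5 and Hk2 climb along nearly all groups, Scd is nearly flat to group 9 and higher in group 10, and Lama2 falls to between 11.8 and 20.1 CPM in group 10.

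Toward the very top of the score, Scd and Me1 rose most in both libraries numbered 2. The top 1% of adipocytes held 287, 90, 247 and 189 nuclei; this split was made after the ranked groups were seen and has no test. In BAT replicate 2, Scd stood at 1683 CPM in the top 1%, at 126 in the other members and at 29.9 in the remaining adipocytes, Me1 at 4842, 417 and 140, Gpam at 4116, 562 and 168, and Insig1 at 561, 66.9 and 38.0. In taPVAT replicate 2, Scd stood at 699, 60.9 and 25 CPM and Me1 at 3103, 1323 and 522. In taPVAT replicate 1 the steps were small, with Scd at 602, 440 and 325 CPM and Me1 at 774, 735 and 503. In BAT replicate 1, Me1 was likewise close between the top 1% and the other members (519 and 461 CPM), and Scd stood at 191 against 72.0 CPM. The thyrotropin receptor gene Tshr, which acts in fat cells too, did not pass between all members and the remaining adipocytes (0.83 ± 0.26, edgeR adjusted p = 0.145; called in 3 of 19 alternative settings). In the top 1%, the other members and the remaining adipocytes it stood at 78.8, 74.4 and 72.9 CPM in taPVAT replicate 1, at 918, 268 and 129 in taPVAT replicate 2, at 243, 66.7 and 79.3 in BAT replicate 1 and at 1316, 316 and 121 in BAT replicate 2. Ucp1 stood at 692, 228, 1274 and 238 CPM in the top 1% of the 4 libraries, against 772, 315, 1395 and 586 CPM in the other members.

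Genes were then counted that were at least 4 times higher or lower in the top 1% than in the other members, among those whose level over all members would give at least 30 UMIs in the top 1%. This left 4072, 2516, 4450 and 3068 genes, of which 0, 9, 3 and 23 were higher and 0, 0, 0 and 39 lower. The rule gene Acly was 1 of the 23. No gene was higher in all 4 libraries and 1 was in 3 of them, Ca5b, a mitochondrial carbonic anhydrase, at 364, 134 and 609 CPM in the top 1% of taPVAT replicate 2, BAT replicate 1 and BAT replicate 2 against 56.1, 27.2 and 88.8 CPM in the other members. In taPVAT replicate 1, Ca5b was too low to be among the genes counted, at 36.5 against 30.7 CPM. The 4 genes higher in both libraries numbered 2 were Ca5b, Scd, Igf1 and Aox3. Igf1, the growth factor gene, stood at 432 and 727 CPM in the top 1% of these libraries and at 65.0 and 162 CPM in the other members, and at 87.0 and 85.0 CPM in taPVAT replicate 1. In BAT replicate 1, Igf1 was too low to be counted, at 50.7 against 28.7 CPM. Of the 39 lower genes of BAT replicate 2, the 3 most abundant in the other members were Ddhd1, a phospholipase gene, at 852 against 4412 CPM, Pde3a, a phosphodiesterase gene, at 692 against 3078 CPM, and the GMP reductase gene Gmpr, at 286 against 1603 CPM. In taPVAT replicate 2 these stood at 2429 against 3874, 2644 against 4202 and 1206 against 2152 CPM, lower in the top 1% by less than 4 times. These genes were named after their values were seen, and the counts have no test. Scrublet marked 2.09%, 1.11%, 2.83% and 2.65% of the top 1% against 6.38%, 2.69%, 12.7% and 11.5% of the other members. The fibroblast genes summed to 127, 81.4, 74.5 and 96.5 CPM in it, and to 111, 90.7, 77.1 and 122 CPM in the other members. Vascular endothelial genes summed to 84.7, 15.8, 19.4 and 56.6 against 45.9, 14.0, 28.8 and 39.7 CPM, and macrophage genes to 76.5, 65.6, 131 and 53.3 against 77.6, 38.2, 110 and 38.3 CPM. The part of other cells in these levels was not tested.

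**Figure D4:**
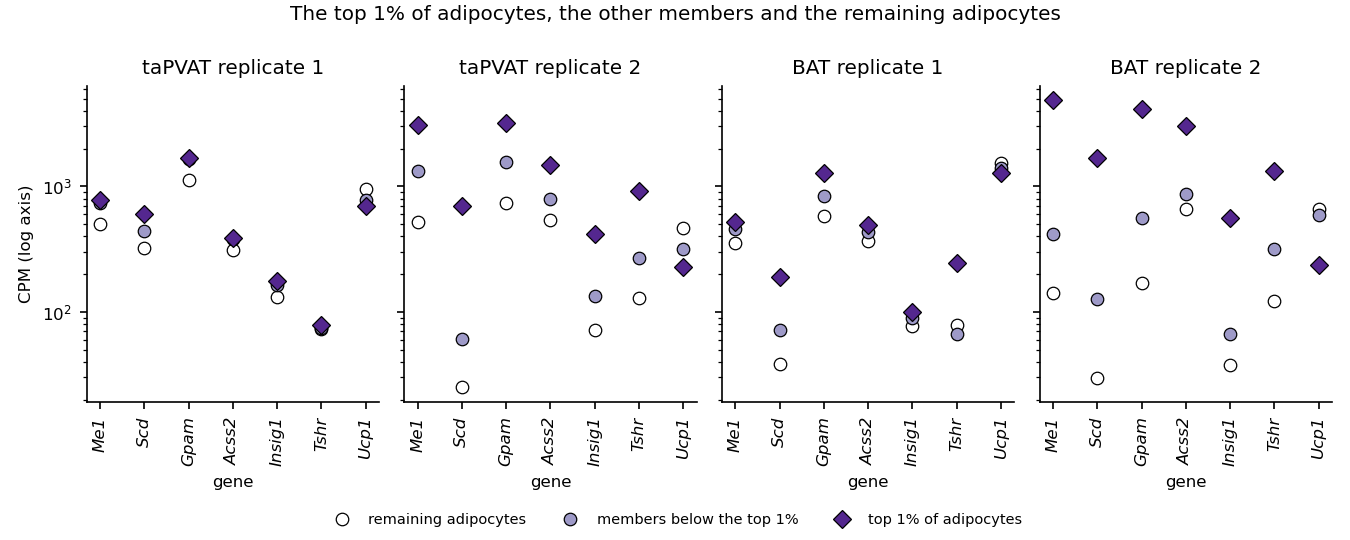
CPM (log axis) of 7 genes in the top 1% of adipocytes by the rule (diamonds), the members below it (filled circles) and the remaining adipocytes (open circles), 1 panel per library. The 3 levels lie far apart for Scd, Me1 and Insig1 in taPVAT replicate 2 and BAT replicate 2, and close together in taPVAT replicate 1.

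The genes lower in the members included markers of fibroblasts and mural cells, the stromal and vessel-wall cells of fat. The 12 largest falls were Rhoj (-1.87), Smpd3 (-1.84), Plxdc2 (-1.83), Lama2 (-1.77), Medag (-1.50), Srpx (-1.43), Gucy1a2 (-1.40), Fbn1 (-1.39), Egfr (-1.35), AABR07068316.1 (-1.30), Col6a2 (-1.25) and Bicc1 (-1.18). Lama2, a laminin chain of stromal cells, stood at 12.5, 11.8, 12.8 and 20.1 CPM in the members and at 50.0, 52.2, 43.2 and 47.7 CPM in the others (-1.77 ± 0.12, edgeR adjusted p = 0.000272). Of 9 fibroblast markers 7 were lower and of 7 mural markers 4, with none higher; in nuclei at or below the median mitochondrial share of their library, 0 of either list passed, and the medians went from -0.54 to -0.35 and from -0.73 to -0.18. With at least 15 gate UMIs, 2 of the fibroblast and 1 of the mural markers were lower. Fewer genes of all those tested were called lower under both of these settings as well, as counted in the last section. Among the genes lower were the collagen gene Col3a1 (-0.84) and the pericyte receptor gene Pdgfrb (-1.44). Summed over the list, fibroblast markers gave 113, 89.9, 76.9 and 119 CPM in the members against 212, 201, 158 and 195 CPM, and mural markers 43.3, 17.7, 24.1 and 35.8 against 73.6, 38.3, 39.0 and 48.5 CPM. Erythroid and platelet markers, led by haemoglobin, gave 152, 224, 145 and 290 against 189, 2380, 169 and 1166 CPM, with no gene of the 7 tested past the threshold. For the vascular endothelial, macrophage, T and B lymphocyte, lymphatic, Schwann, mesothelial and proliferating lists no gene passed. With 2 to 9 genes tested in each, and 2.37% of all genes called lower, this does not set them apart. The vascular endothelial, lymphatic and mesothelial medians were -0.49, -0.55 and -0.57, about as low as that of the fibroblast list. Medians were -0.16 for macrophage, -0.23 for T and -0.28 for B lymphocyte, -0.18 for proliferating and 0.07 for Schwann markers. Of 3 skeletal muscle markers Actn2 was lower (-0.44 ± 0.05, edgeR adjusted p = 0.00201).

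In adipocytes with no UMI of more of the other cells' markers, the 10 of the 12 largest falls that could be fitted were no longer called. A stricter gate, added after the falls were seen, also asked for no UMI of the endothelial, fibroblast, macrophage, lymphocyte, mural and mesothelial lists and kept 36.4%, 41.8%, 41.8% and 52.6% of the adipocytes; the members chosen again in it had all been members before. In it 77 genes were higher and 37 lower, of 11624 tested. Plxdc2 then stood at -0.20 (edgeR, adjusted p = 0.804), Medag at -0.05 (edgeR, adjusted p = 0.992) and Smpd3 at -0.24 (edgeR, adjusted p = 0.896), and the direction of Rhoj (0.38), Srpx (0.25), Gucy1a2 (0.14), Egfr (0.51), Col6a2 (0.047), Bicc1 (0.044) and AABR07068316.1 (0.086) turned, none of them past the threshold. Lama2 and Fbn1 are in the lists that defined the gate and have no value in it. The muscle, Schwann, proliferating and erythroid lists were not used by it, and Actn2 still passed (-0.45, edgeR adjusted p = 0.014). Of 6 erythroid and platelet markers tested there, the haemoglobin gene Hbb was called lower (-2.02 ± 0.36, edgeR adjusted p = 0.023), and the median of that list went from -0.56 to -1.06. Acsl5 stood at 0.78 (edgeR, adjusted p = 0.00045), Hk2 at 0.51 (edgeR, adjusted p = 0.00137), Scd at 1.70 (edgeR, adjusted p = 0.0478), Gpam at 1.18 (edgeR, adjusted p = 0.0478) and Tmem110 at 1.05 (edgeR, adjusted p = 0.00299). Ucp1 stood at -0.37 (edgeR, adjusted p = 0.0325). Of the synthesis list 4 genes were higher, of the glucose list 6, of the triglyceride list 3 and of the cholesterol list 2. Of the rises named above from the lists, 10 no longer passed there: Slc25a10, Tecr, Pik3r1, Fdps, Cyp51, Sc5d, Pdha1, Dlat, Tkt and Agpat3 (edgeR, adjusted p from 0.0735 for Dlat to 0.536 for Agpat3). Apart from Agpat3, at 0.11 after 0.19, their fold changes were of similar size: Slc25a10 stood at 1.16, Tecr at 0.70, Cyp51 at 0.92, Sc5d at 0.43, Fdps at 0.30, Pdha1 at 0.22, Dlat at 0.21, Pik3r1 at 0.20 and Tkt at 0.18. Of the falls named from the metabolic and response lists, 7 no longer passed: Impdh1 (-0.51), Irs2 (-0.34), Pck1 (-0.27), Jun (-0.37), Ppara (-0.27), Cav1 (-0.24) and Esrrg (-0.19), with adjusted p from 0.05004 for Impdh1 to 0.12 for Esrrg (edgeR).

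**Figure D5:**
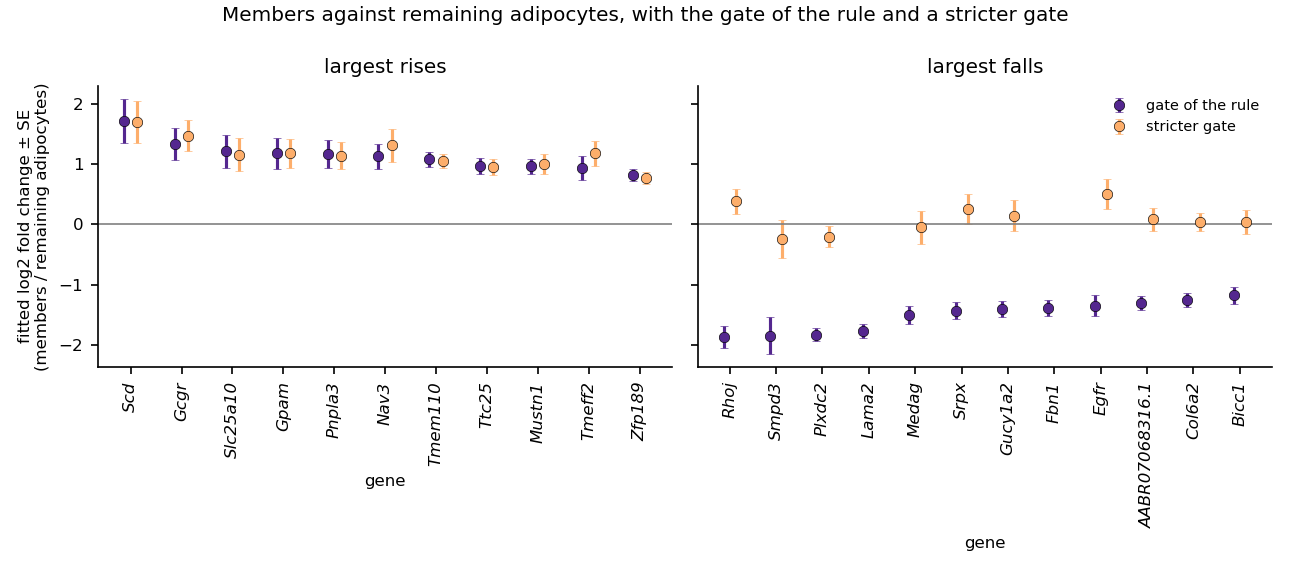
Fitted log2 fold change ± SE (y axis) of the largest rises described in the text and the 12 largest falls between members and remaining adipocytes, with the gate of the rule and with the stricter gate. The rises lie at about the same place under both gates, whereas the falls move to between -0.24 and 0.51; Lama2 and Fbn1 have no value under the stricter gate.

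Within each tissue, with the spread pooled over both, 30 genes (0.221%) were higher and 93 (0.686%) lower in the members of taPVAT, and 9 (0.0663%) and 33 (0.243%) in those of BAT. Fits of each tissue alone gave 163 higher and 269 lower in taPVAT, and 14 and 39 in BAT. Hk2, Acsl5 and Tmem110 were higher in both tissues. The synthesis list had no call in either tissue, with medians of 0.26 in taPVAT and 0.49 in BAT. The difference between the tissues was tested as an interaction. No gene of 13565 passed (0%; edgeR, 318 genes or 2.34% at an unadjusted p under 0.05; DESeq2 called 1, or 0.00737%). Without BAT replicate 1, 2 genes passed with a signed difference (taPVAT log2 fold change minus that of BAT) above 0 and 16 below 0, on the spread of the 2 taPVAT libraries alone, since 1 BAT library has no replicate. Among the genes with the smallest p over all 4 libraries, this difference was above 0 for Samd4a, Gpm6a, Slc38a1, Fgd2 and Ampd3, and below 0 for Lmod1, Fosb, Ano1 and Impdh1. The members' log2 fold change was 0.14 in taPVAT and -0.37 in BAT for Gpm6a, and -1.63 and -0.28 for the immediate early gene Fosb. Samd4a, an RNA-binding protein gene, stood at 202, 83.6, 35.8 and 14.1 CPM in the members against 129, 48.2, 37.3 and 18.9 CPM (difference of log2 fold changes 0.91 ± 0.13, edgeR adjusted p = 1). Scd, Gpam and Me1 had wider differences in BAT replicate 2 than in the other BAT library, and their interactions were -0.91, -0.64 and -0.49 (edgeR, adjusted p = 1 each).

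Members of taPVAT were compared with members of BAT over 2 libraries each. No gene of 11476 passed (0%; edgeR, 253 genes or 2.2% at an unadjusted p under 0.05; DESeq2 called 17 higher, 0.148%, and 9 lower, 0.0784%). With BAT replicate 1 left out 36 genes were called higher and 71 lower in taPVAT, and with BAT replicate 2 left out 75 and 17. BAT is then 1 library, assumed to vary like the 2 of taPVAT, and these calls hold no measure of the spread in BAT. The 5 genes with the smallest p higher in taPVAT were Vat1l, Abca16, Gpm6a, AABR07031740.1 and Asic2, and the 5 lower were Esr1, Impdh1, Angpt1, AABR07010985.1 and Rcan2. Vat1l stood at 111 and 157 CPM in taPVAT members and at 31.2 and 22.7 CPM in BAT members (2.33 ± 0.33, edgeR adjusted p = 0.755). Asic2 stood at 180 and 43.8 against 1.65 and 4.13 CPM, the BAT levels resting on 17 and 24 UMIs (5.30 ± 0.85, edgeR adjusted p = 0.755). The oestrogen receptor gene Esr1 stood at 76.6 and 73.9 against 229 and 193 CPM (-1.48 ± 0.25, edgeR adjusted p = 0.833), and the vessel factor Angpt1 at 71.5 and 48.5 against 202 and 155 CPM (-1.57 ± 0.29, edgeR adjusted p = 0.961).

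The rule genes over all adipocytes show the level on which each cut sat. Together they gave 5973 and 4942 CPM in taPVAT and 3653 and 2108 CPM in BAT. The fitted log2 difference, taPVAT over BAT, was 0.67 ± 0.57 for Fasn, 1.11 ± 0.39 for Acaca, 0.82 ± 0.34 for Acly and 1.15 ± 0.51 for Elovl6, none past the threshold (edgeR over 15886 genes of which 0% passed, adjusted p = 1 each; 397 genes or 2.5% at an unadjusted p under 0.05). Over all genes, leaving out BAT replicate 1 gave 66 higher and 42 lower in taPVAT, leaving out BAT replicate 2 gave 121 and 28, and leaving out taPVAT replicate 2 gave 10 and 3, each with 1 tissue down to a single library and the spread taken from the other tissue alone. The spread between the 2 libraries of a tissue was as wide as the difference for Fasn, which turned to -0.12 without taPVAT replicate 1. In endothelial barcodes, free RNA was not told apart from the cells' own. They held 2929 and 1055 CPM of the 4 genes in taPVAT and 2237 and 782 in BAT. In them BAT replicate 1 stood above taPVAT replicate 2, whereas in adipocytes it stood below, and the part of free RNA in the difference between tissues was not tested.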

How the data were processed

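Single-nucleus RNA was profiled with 10x 3′ chemistry in 2 taPVAT and 2 BAT libraries. The deposited matrices hold raw UMI counts per gene and barcode for 32883 genes, made with Cell Ranger 7.1.0 per the file headers and on build Rnor_6.0 per the submitters' processing notes; the annotation release, the use of introns and strand, and the rule that kept barcodes were not given in the sources used here.

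From these counts, adipocyte nuclei and members were chosen by the rule in the text, and UMIs were summed per library and state. Cells were not used as replicates: the 8 sums were tested with edgeR 4.0.16 (R 4.3.3; TMM scaling, filterByExpr, quasi-likelihood test, library as a term, Benjamini-Hochberg adjustment, threshold 0.05). The 4 rule genes, 6 gate genes and 7 exclusion genes stayed in the totals but were not tested. The comparisons between tissues used sums of 2 libraries a tissue with no covariate. DESeq2 1.42.0 was an alternative; Python 3.11.15 (numpy 2.4.6, scipy 1.17.1, pandas 2.3.3, matplotlib 3.10.9) did the rest. CPM is the UMIs of the summed nuclei scaled to a total of 1000000, and ± is the SE of a log2 fold change unless an SD is named. Fold changes and p-values rest on 4 libraries. For members against remaining adipocytes, the library term takes up differences in level between libraries. The p-values there measure how far the difference within a library varied from library to library. Between tissues, they measure the spread between the libraries of a tissue. UMIs of a nucleus are not corrected for free RNA, so values in endothelial barcodes, which can hold free RNA beside their own, are given with the results.

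Doublets were scored, not removed, with Scrublet (in scanpy 1.11.5) on each library; in BAT replicate 1 it called none, and 6402 top scores stood in for its calls. Members, gene lists (391 of 409 listed genes were found in the files) and tests were chosen with earlier results of these data known. Named genes outside the lists were, for members against remaining adipocytes, the 12 with the largest fold change in each direction among genes past the threshold, at 10 CPM or more and in the same direction in all 4 libraries, and, between tissues, the 5 with the smallest p in each direction; a few results are not reported here. Other values were shares of nuclei with a UMI, checked after thinning to 1000 UMIs. The scripts were tested on simulated data. Alternatives changed the share of nuclei taken, the depth matching, the denominator, the doublets, the mitochondrial share, the scaling, the count filter and the libraries; the stricter gate, a gate of 15 UMIs, and fits without the top 1% or the lowest 10% of nuclei were added after seeing the data. Promoters came from the RefSeq table of build GRCr8.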

Additional observations from a re-analysis of the deposited data

How the results depend on the processing

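The counts of genes higher and lower in the members, 158 and 322, stayed within 1.5 times with DESeq2 (213 and 298), RLE scaling, depth-matched members, another denominator, without Scrublet calls, without the top 1%, without the lowest 10% and without the ranks between the top 10% and 20%. They became 248 and 607 with no filter on low counts, 55 and 137 with the top 5% as members, and 256 and 492 with the top 20%. Lower genes alone fell to 137 in nuclei at or below the median mitochondrial share and to 130 with 15 gate UMIs, and the stricter gate gave 77 and 37. Leaving out 1 library gave 44 to 214 higher and 114 to 440 lower; the lowest counts were those without taPVAT replicate 2. With no replicate block (library term dropped) the counts were 0 and 0, with 443 genes at an unadjusted p under 0.05. Fits of each tissue alone gave 163 and 269 in taPVAT, and 14 higher in BAT. The signed interaction, taPVAT minus BAT, gave 1 gene above 0 with DESeq2, 12 above and 67 below 0 with no filter, and 0 to 2 and 0 to 16 when 1 library was left out. Between tissues within members, DESeq2 called 17 higher and 9 lower in taPVAT, no filter gave 52 and 43, and leaving out 1 library gave 0 to 75 and 0 to 71. Over all adipocytes, leaving out 1 library gave 0 to 121 higher and 0 to 42 lower; Fasn went from -0.12 (without taPVAT replicate 1) to 1.36 (without BAT replicate 1). Whether the replicate numbers pair taPVAT with BAT is not stated by the labels. Same-numbered libraries deviated together (r = 0.56 over 11476 genes); with 2 libraries a tissue both pairs give this 1 value and crossed pairs its negative by construction. With the replicate block, 101 genes were higher and 69 lower in taPVAT members, 158 and 63 over all adipocytes, and Acaca (1.18, edgeR adjusted p = 0.0228) and Elovl6 (1.12, edgeR adjusted p = 0.0233) passed. Under the stricter gate 7 named falls turned: Rhoj 0.38, Srpx 0.25, Gucy1a2 0.14, Egfr 0.51, Col6a2 0.047, Bicc1 0.044 and AABR07068316.1 0.086. The causes of these changes were not tested. The choice of members rested on the fewest UMIs in BAT replicate 2 (median 13 of the 4 genes), whose adipocytes also had the lowest level of these genes (2108 CPM). Fits that leave 1 library in a tissue take the spread between libraries from the other tissue.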
